A study of Mus musculus with 9 samples.

Results

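The 10 genes described here are targets of the hypoxia-inducible factors (HIF) that lie outside glycolysis: Ndrg1, Ankrd37, Ddit4, Ak4, P4ha1, P4ha2, Plod1, Plod2, Car9 and Car12. They were chosen by gene symbol from a table of 54532 mouse genes, each symbol matched 1 row, and all 10 were among the 16123 genes with enough expression to be tested. The question was how their RNA levels changed under oxygen-glucose deprivation (OGD), and how those levels moved when the acetyltransferase P300 was inhibited during OGD. The RNA came from BV2, an immortalized mouse microglial cell line, in 3 groups of 3 libraries. The control cells stayed in complete medium with 10% serum in normal air. The OGD cells were kept in low-glucose medium with 4% serum at 4% oxygen. The OGD + A-485 cells (labelled OGD_A_485) received the same deprivation with A-485, an inhibitor of the catalytic domain of P300 and its relative CBP. In the experiments that led up to the sequencing, OGD lasted 24 h and A-485 was given at 50 μM. The duration and the dose were not stated again for the sequenced cells. No group received A-485 without OGD, and the OGD groups differed from control in oxygen, glucose and serum together. All libraries came from 1 cell line, and nothing in the labels says whether the 3 libraries of a group were separate cultures, so the p-values measure the spread between these libraries.

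HIF is a heterodimer of an oxygen-regulated alpha subunit and ARNT. In normal air, prolyl hydroxylases of the EGLN family mark the alpha subunit for destruction by VHL, and the hydroxylase HIF1AN blocks its binding to P300 and CBP. At low oxygen the alpha subunit accumulates, binds the core letters ACGTG or GCGTG in promoters and enhancers, and recruits P300 and CBP, which acetylate histones at the target gene. The targets outside glycolysis restrain growth, set up collagen for export, balance adenine nucleotides and manage acid, and microglia carry the same machinery as other cells.

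The 250 bases before the annotated start were available for 8 of the 10 genes (RefSeq promoter sequences, build GRCm38.p6; Ndrg1 and Plod2 had no entry). The windows of 4 of them follow, because they span the range of responses to OGD and to A-485 that follows: Ddit4, P4ha1, P4ha2 and Car12. They are written 5′ to 3′ on the strand of the gene, and capitals mark the core letters ACGTG and GCGTG, or CACGT and CACGC where the core lies on the other strand. The windows are chr10:59951771-59952020 (minus strand) for Ddit4, chr10:59323046-59323295 (plus) for P4ha1, chr11:54100674-54100923 (plus) for P4ha2 and chr9:66713436-66713685 (plus) for Car12.
Ddit4: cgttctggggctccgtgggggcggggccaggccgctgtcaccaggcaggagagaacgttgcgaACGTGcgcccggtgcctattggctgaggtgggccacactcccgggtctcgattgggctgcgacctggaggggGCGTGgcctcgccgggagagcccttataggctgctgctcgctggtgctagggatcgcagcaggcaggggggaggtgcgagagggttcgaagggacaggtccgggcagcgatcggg
P4ha1: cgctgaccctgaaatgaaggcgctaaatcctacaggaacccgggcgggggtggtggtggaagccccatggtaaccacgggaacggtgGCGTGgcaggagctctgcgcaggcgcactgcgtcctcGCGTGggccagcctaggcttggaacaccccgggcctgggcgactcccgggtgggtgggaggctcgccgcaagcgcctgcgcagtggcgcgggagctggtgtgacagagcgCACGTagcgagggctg
P4ha2: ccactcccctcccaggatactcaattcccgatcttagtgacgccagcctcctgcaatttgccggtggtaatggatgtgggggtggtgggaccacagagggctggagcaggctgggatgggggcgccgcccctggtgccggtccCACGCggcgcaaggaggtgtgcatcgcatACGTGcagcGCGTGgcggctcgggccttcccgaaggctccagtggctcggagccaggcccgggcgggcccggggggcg
Car12: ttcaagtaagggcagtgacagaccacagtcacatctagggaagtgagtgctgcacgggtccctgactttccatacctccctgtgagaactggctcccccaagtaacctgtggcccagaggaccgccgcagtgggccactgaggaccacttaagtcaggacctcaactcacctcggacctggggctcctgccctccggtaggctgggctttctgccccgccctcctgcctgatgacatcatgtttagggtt

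Each gene was scored on 1 window, for Ak4 the nearest to the table's gene start of 4 in the RefSeq table. ACGTG was found on either strand in the windows of 5 of the 8 genes (Ankrd37, Ddit4, P4ha1, P4ha2 and Car9), against 16.6% of all 32851 windows of the same length. GCGTG was found in 6 of the 8 (Ankrd37, Ddit4, Ak4, P4ha1, P4ha2 and Plod1), against 28.2%, and either core in 7 of the 8, against 38.6%. Of the 4 Ak4 windows 1 held ACGTG, so over all windows of these genes the count was 6 of 8. The Car12 window held neither. With the last base before the start counted as -1, the core ACGTG began at -187 in Ddit4, -16 in P4ha1, -78 in P4ha2 and -18 in Car9. Ankrd37 had it at -241 and at -6. The P4ha2 window ends at a start 829 bases inside the gene as the table gives it, and that of Ankrd37 at a start 5857 bases inside. The background windows were not matched to the members for base composition or expression, and the members were chosen as HIF targets. These are matches of letters, and HIF binding was not measured.

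Each library held between 12593250 and 16091038 reads on genes. Defining microglial markers were present at a mean of at least 0.2 FPKM (9 of 10 listed, P2ry12 being absent at 0.105 FPKM). Their summed level was between 359 and 369 FPKM in the control libraries, between 477 and 503 under OGD and between 744 and 781 with A-485 added. Cd68 made up most of this sum, with means of 277, 306 and 445 FPKM in these groups. Tmem119 stayed at 1.40, 1.34 and 1.33, while the other markers present were higher in both OGD groups than in control. None of 4 astrocyte and 3 fibroblast markers was present. Of the listed neuronal, oligodendrocyte and endothelial markers, 1 of 4, 2 of 4 and 2 of 3 were present, none with a mean of 1 FPKM or more. As in any bulk RNA, fewer cells that express a gene and less RNA per cell cannot be told apart.

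OGD raised 6 of the 10 genes: Ndrg1, Ankrd37, Ddit4, P4ha2, Plod2 and Car9. A gene was called changed at an unadjusted limma p under 0.01 with an absolute log2 fold change above 0.5, and fold changes are on the scale of log2(FPKM + 0.1). None of the 10 was called lower, and 4 were not called. Over all genes tested, 11.2% were called higher and 9.81% lower. The 3 OGD libraries all lay above the 3 control libraries in 8 of the 10 genes and below them in 1, against 28.0% and 27.5% of all genes tested. The median log2 fold change of the 10 genes was 1.06, and that of all genes tested 0.01. With A-485 added to OGD, 2 of the 10 genes were called higher than in OGD alone (P4ha1 and P4ha2), none was called lower, and 8 were not called. The background shares there were 12.2% higher and 13.4% lower, and the medians 0.08 for the 10 genes and 0.01 for all. Without overlap, 4 of the 10 genes were higher and 3 lower with A-485, against 28.5% and 28.3% of all genes. At a Benjamini-Hochberg adjusted limma p under 0.05 without a limit on size, 9 of the 10 differed between OGD and control and 7 between OGD + A-485 and OGD. Of all 16123 genes tested, 7300 passed this limit between OGD and control and 8036 between OGD + A-485 and OGD. The 2 comparisons share the OGD libraries.

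**Figure D1:**
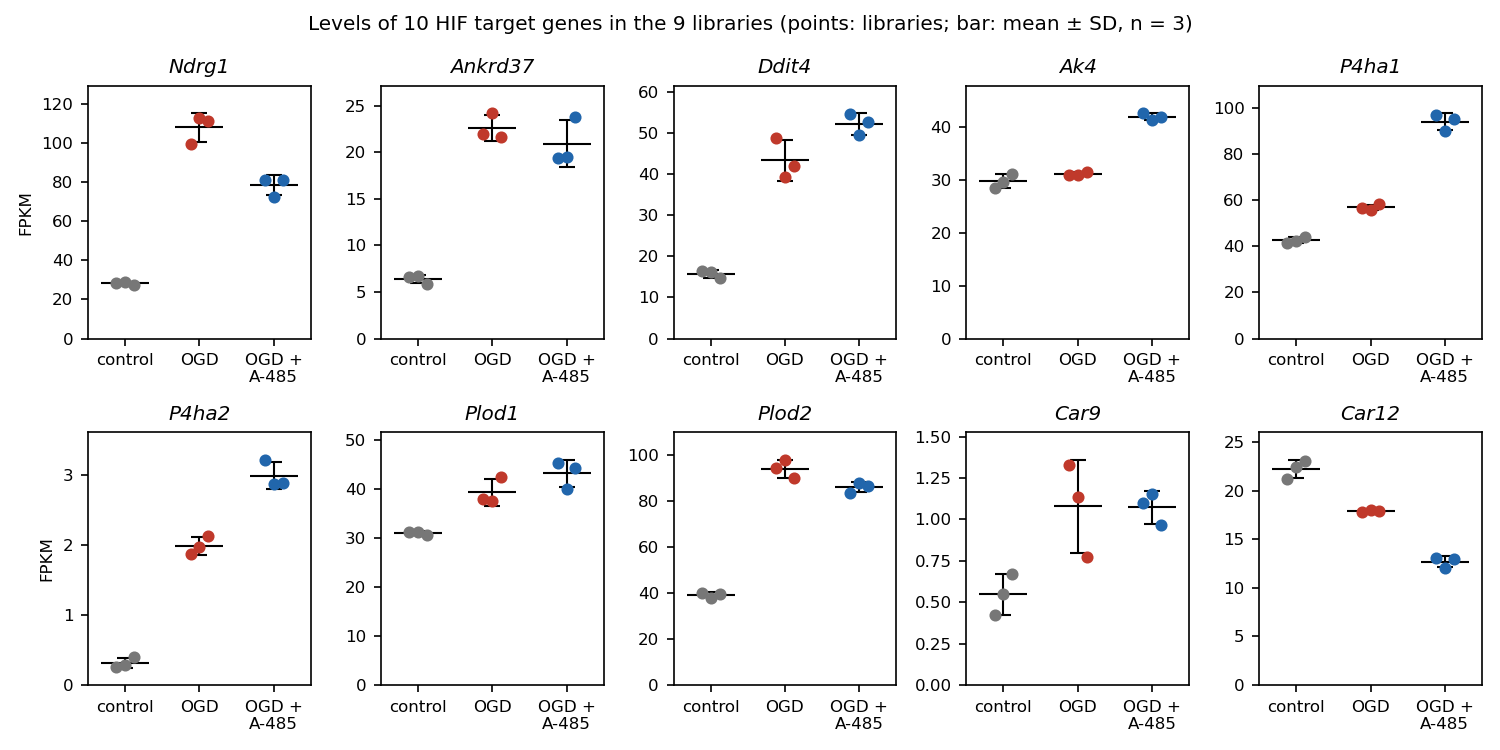
Levels of the 10 genes in FPKM (fragments per kilobase of gene, with the deposited scaling of each library; linear axes from 0) in the 9 libraries, with 1 point per library and bars for the mean and SD of 3 libraries. Ndrg1, Ankrd37, Ddit4, P4ha2 and Plod2 stood well above control in both OGD groups, P4ha1 was highest in OGD + A-485, and Car12 was highest in control.

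Ndrg1, Ankrd37 and Ddit4 are stress and growth-arrest targets of HIF. NDRG1 is a cytoplasmic protein linked to growth arrest and differentiation, and it is among the most widely used transcripts for reading HIF activity. The gene (ENSMUSG00000005125) lies at chr15:66929318-66969640 on the minus strand of GRCm38. Its level was 28.6, 28.9 and 27.5 FPKM in the control libraries, 99.6, 113 and 111 under OGD, and 81.3, 72.4 and 81.2 with A-485 added. All 9 libraries fell into 3 separate groups, with control lowest and OGD highest. The rise with OGD was 1.92 ± 0.06 on the log2 scale (SE; ratio of mean FPKM 3.81; adjusted p = 2.39e-07, limma with Benjamini-Hochberg adjustment). Against OGD, the level with A-485 was 72.5% of the mean FPKM, a log2 difference of -0.46 (95% confidence interval -0.60 to -0.32; adjusted p = 0.000273, limma with Benjamini-Hochberg adjustment). This difference was larger than the spread between libraries and smaller than the 0.5 that a call required. It passed 0.5 under quantile normalization (-0.58), under scaling to total reads (-0.53), with the median of the 50 nearest expressed genes subtracted (-0.54) and without OGD replicate 1 (-0.52). Ndrg1 with A-485 was 1.46 ± 0.06 above control. On the opposite strand it overlaps Gm2895 over 318 bases (mean 0.315 FPKM) and Gm17035 (listed at 0). Of its family 2 other genes were tested and none was called with OGD, while Ndrg4 was called lower with A-485 (0.609 FPKM under OGD and 0.166 with A-485).

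ANKRD37 is a small ankyrin repeat protein whose transcript is a direct HIF target, and its function is little known. The gene (ENSMUSG00000050914) lies at chr8:45996902-46005707 on the minus strand. It measured 6.57, 6.75 and 5.90 FPKM in control, 22.00, 24.2 and 21.7 under OGD, and 19.4, 19.5 and 23.8 with A-485 added. Control lay below all other libraries, and the 2 OGD groups overlapped. Ankrd37 rose by 1.81 ± 0.09 with OGD (ratio 3.53; adjusted p = 1.71e-06, limma with Benjamini-Hochberg adjustment). The difference between OGD + A-485 and OGD was -0.12, with an interval from -0.32 to 0.09 (adjusted p = 0.312, limma with Benjamini-Hochberg adjustment), so a decrease by more than 0.32 lay outside it. Ankrd37 overlaps Lrp2bp over 6405 bases and Ufsp2 over 57 bases on the opposite strand, and the use of strand in the read counts is not given in the sources used here. Lrp2bp had a mean of 0.122 FPKM and Ufsp2 of 23.7.

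DDIT4, also called REDD1, releases the TSC complex and thereby inhibits mTORC1, the kinase complex that drives protein synthesis. The gene (ENSMUSG00000020108) lies at chr10:59949669-59951834 on the minus strand. Its level was 16.5, 16.2 and 14.6 FPKM in control, 48.7, 39.2 and 42.0 under OGD, and 54.6, 49.4 and 52.7 with A-485 added. OGD + A-485 was the highest group, although its lowest library exceeded the highest OGD library only narrowly. Ddit4 rose by 1.45 ± 0.08 with OGD (ratio 2.75; adjusted p = 3.12e-06, limma with Benjamini-Hochberg adjustment). With A-485 it measured 0.27 more than in OGD (interval 0.09 to 0.46; adjusted p = 0.0222, limma with Benjamini-Hochberg adjustment), which was not called. Against control, OGD + A-485 was 1.72 ± 0.08 higher.

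Ddit4 is also induced by the integrated stress response, the ATF4 programme, and it acts beside other inhibitors of mTORC1. Of 13 tested genes of the stress response list, 5 were called higher and 3 lower with OGD, and 1 higher and none lower with A-485. All genes tested gave 11.2% higher and 9.81% lower with OGD, and 12.2% and 13.4% with A-485. Atf3 (1.42) and Ddit3 (1.17), both transcription factors of the programme, rose with OGD, while Slc7a11, the cystine transporter, fell by 0.99. Atf4 itself differed from control by -0.04 at the RNA level and was not called. Among 8 tested genes of the mTORC1 list, 3 were called higher and 1 lower with OGD. Sesn2 (1.13) and Txnip (0.99) rose, and Deptor, an mTOR-binding inhibitor, fell by 1.17. With A-485, Deptor (0.77) and Txnip (0.56) rose above their OGD levels, and Castor2 fell by 1.46.

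AK4 is an adenylate kinase of the mitochondrial matrix that exchanges phosphate between adenine and guanine nucleotides. The gene (ENSMUSG00000028527) lies at chr4:101419277-101466995 on the plus strand. It measured 28.5, 29.6 and 31.0 FPKM in control, 30.9, 30.9 and 31.5 under OGD, and 42.6, 41.2 and 41.7 with A-485 added. Control and OGD overlapped, and every library with A-485 lay above both. The difference between OGD and control was 0.07 (interval -0.02 to 0.15; adjusted p = 0.186, limma with Benjamini-Hochberg adjustment). Between OGD + A-485 and OGD it was 0.43 (interval 0.34 to 0.51; adjusted p = 2.31e-05, limma with Benjamini-Hochberg adjustment), past the spread between libraries and under the size a call required. Of 5 other adenylate kinase genes tested, Ak8 rose by 1.25 with OGD and by 1.85 more with A-485, from a level of 0.485 FPKM in control to 4.81. Ak6 and Ak3 fell with OGD, by 0.97 and 0.67, and Ak1 fell with A-485, by 0.68.

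P4HA1 and P4HA2 are the catalytic subunits of prolyl 4-hydroxylase, the enzyme of the endoplasmic reticulum that hydroxylates proline in collagen and collagen-like chains and uses oxygen to do so. These were the 2 members called higher with A-485. P4ha1 (ENSMUSG00000019916) lies at chr10:59323296-59373304 on the plus strand, less than a megabase from Ddit4. Its level was 41.5, 42.4 and 44.0 FPKM in control, 56.8, 55.8 and 58.3 under OGD, and 97.2, 90.1 and 95.5 with A-485 added. The 3 groups were far apart, with control lowest and OGD + A-485 highest. With OGD the difference was 0.42 ± 0.04 (adjusted p = 5.00e-05, limma with Benjamini-Hochberg adjustment), below the size of a call. With A-485, P4ha1 rose by a further 0.73 ± 0.04 (interval 0.63 to 0.82; ratio 1.66; adjusted p = 1.45e-06, limma with Benjamini-Hochberg adjustment), the largest value of the 10 genes in that comparison.

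P4ha2 (ENSMUSG00000018906) lies at chr11:54100095-54131665 on the plus strand. It was scarce, at 0.264, 0.292 and 0.396 FPKM in control, 1.88, 1.97 and 2.13 under OGD, and 3.23, 2.87 and 2.89 with A-485 added. The groups did not overlap, on 22 to 40 reads per control library, 149 to 187 under OGD and 260 to 294 with A-485 added. P4ha2 rose by 2.34 ± 0.15 on the log2 scale with OGD (adjusted p = 5.02e-06, limma with Benjamini-Hochberg adjustment), the highest value of the 10 genes. With a pseudocount of 1 it was 1.18, below Ndrg1, Ankrd37, Ddit4 and Plod2. The ratio of mean FPKM was 6.28, larger than the fitted 5.05-fold because the pseudocount of 0.1 draws in low values. With A-485 it rose by a further 0.57 ± 0.15 (interval 0.23 to 0.90; adjusted p = 0.0109, limma with Benjamini-Hochberg adjustment). That call was lost with a pseudocount of 1 (0.42), with the neighbours' median subtracted (0.44), and without OGD replicate 1 (0.52) or 2 (0.56) or OGD + A-485 replicate 1 (0.51), 2 (0.59) or 3 (0.59).

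PLOD1 and PLOD2 are lysyl hydroxylases, which modify lysine in collagen, PLOD2 in the telopeptides where it sets the type of crosslink. Plod1 (ENSMUSG00000019055) lies at chr4:147909753-147936767 on the minus strand. It measured 31.2, 31.2 and 30.6 FPKM in control, 37.9, 37.5 and 42.5 under OGD, and 45.2, 39.9 and 44.3 with A-485 added. Control lay below both OGD groups, which overlapped each other. The difference with OGD was 0.34 ± 0.06 (adjusted p = 0.00189, limma with Benjamini-Hochberg adjustment), not called for its size. With A-485 it was 0.14 above OGD (interval -0.0047 to 0.27; adjusted p = 0.1001, limma with Benjamini-Hochberg adjustment).

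Plod2 (ENSMUSG00000032374) lies at chr9:92542223-92608428 on the plus strand. Its level was 40.0, 37.9 and 39.6 FPKM in control, 94.0, 97.8 and 89.7 under OGD, and 83.5, 87.6 and 86.3 with A-485 added. Both OGD groups lay far above control, and the A-485 libraries sat just under the OGD libraries. Gm38391, on the opposite strand, overlaps it over 647 bases and had a mean of 0.978 FPKM. Plod2 rose by 1.26 ± 0.04 with OGD (ratio 2.40; adjusted p = 2.61e-07, limma with Benjamini-Hochberg adjustment). With A-485 the level was 91.5% of OGD, a difference of -0.13 (interval -0.22 to -0.03; adjusted p = 0.0323, limma with Benjamini-Hochberg adjustment), not called.

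Each of these enzymes has a partner of the same family. The share of P4ha2 and of Plod2 in its pair was higher in every OGD library than in every control library. P4ha2 made up 0.736% ± 0.137 (SD, n = 3) of the summed FPKM of P4ha1 and P4ha2 in control, 3.38% ± 0.169 under OGD and 3.08% ± 0.138 with A-485 added. Plod2 made up 55.8% ± 0.842 of the summed FPKM of Plod1 and Plod2 in control, 70.5% ± 2.33 under OGD and 66.5% ± 1.97 with A-485 added. P4ha1 thus stayed the predominant transcript of its pair in all 3 groups. In the log2 ratio within each pair, OGD lay above control without overlap, by 2.25 for P4ha2 over P4ha1 and by 0.92 for Plod2 over Plod1 (exact permutation test, two-sided, p = 0.1 for each, the smallest that 3 libraries against 3 allow; 0.15 after adjustment over 9 tests). Between OGD + A-485 and OGD the log2 ratios overlapped and differed by -0.14 and -0.26 (exact permutation test, p = 0.2 for each).

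**Figure D2:**
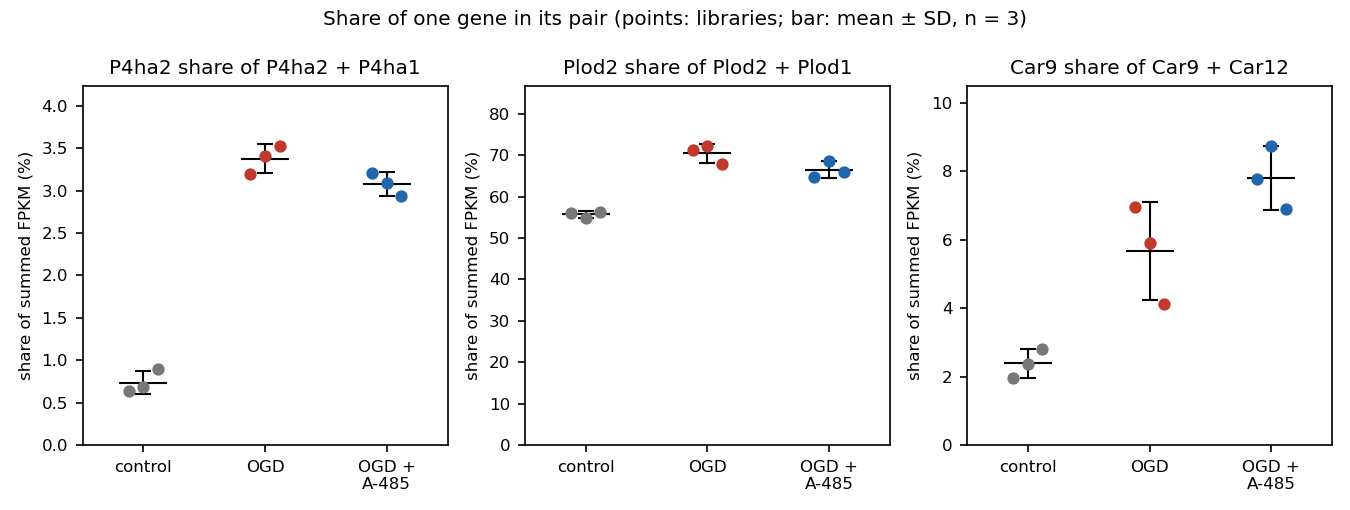
Share of P4ha2, Plod2 and Car9 in the summed FPKM of each pair (percent, linear axes from 0), with 1 point per library and bars for the mean and SD of 3 libraries. Control was the lowest group for every pair, and the OGD and OGD + A-485 libraries overlapped.

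The other enzymes and chaperones of collagen modification were read beside these 4 genes. Of 11 listed, 7 were tested, 2 were called higher and none lower with OGD, and 4 were called higher and none lower with A-485. The shares called higher over all genes tested were 11.2% with OGD and 12.2% with A-485, and those called lower 9.81% and 13.4%. P4hb, the protein disulfide isomerase that is the beta subunit of prolyl 4-hydroxylase, rose from 177 ± 5.27 FPKM in control to 354 ± 4.48 under OGD and 587 ± 34.9 with A-485 added (SD, n = 3). That is 0.997 and then 0.727 on the log2 scale, beside 0.42 and 0.73 for P4ha1. P3h3, a prolyl 3-hydroxylase family member, rose by 0.83 and then by 0.72. Plod3, the third lysyl hydroxylase, was not called with OGD (0.44) and rose by 0.85 with A-485. Colgalt1, which adds galactose to hydroxylysine, rose by 0.62 with A-485. The 4 genes left untested, P4ha3, P3h2, P3h4 and the collagen chaperone Serpinh1, were at or near 0. Their classical substrates were scarce as well. Of 10 listed collagens only Col4a2 and Col18a1 were tested, with group means up to 0.624 FPKM, and the other 8 had means under 0.2 FPKM. Neither was called with OGD. With A-485 Col4a2 was called higher than in OGD (0.98, from 0.272 to 0.624 FPKM), and Col18a1 was not called.

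CAR9 and CAR12 are carbonic anhydrases of the plasma membrane with an outward-facing active site, which turn carbon dioxide into bicarbonate and protons outside the cell. Car9 (ENSMUSG00000028463) lies at chr4:43506966-43513729 on the plus strand. It was near the lower limit of detection, at 0.422, 0.548 and 0.670 FPKM in control, 1.33, 1.13 and 0.771 under OGD, and 1.10, 1.15 and 0.963 with A-485 added. These values rest on 13 to 42 reads per library. Control lay below both OGD groups, and the OGD groups overlapped. Car9 rose by 0.85 ± 0.23 with OGD (adjusted p = 0.0147, limma with Benjamini-Hochberg adjustment). Its difference between OGD + A-485 and OGD was 0.02, with an interval from -0.50 to 0.54, so a change of 0.5 in either direction could not be told at this depth. The rise with OGD was lost with a pseudocount of 1 (0.42), under quantile normalization (0.67), with the neighbours' median subtracted (0.73), in a fit of only the groups compared (0.85), and without control replicate 1 (0.71) or 2 (0.86) or OGD replicate 1 (0.70) or 2 (0.80). Gm12454, an antisense transcript, overlaps Car9 over 1782 bases and measured 0.313 FPKM in control, 0.578 under OGD, and 0.612 with A-485 added. The part of its reads in the Car9 values was not tested.

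Car12 (ENSMUSG00000032373) lies at chr9:66713686-66766845 on the plus strand. Unlike Car9 it was abundant in control. It measured 21.2, 22.5 and 23.1 FPKM in control, 17.8, 18.0 and 17.9 under OGD, and 13.1, 12.04 and 13.0 with A-485 added. The 3 groups were separate and descended in that order. The step from control to OGD was -0.31 ± 0.05 (adjusted p = 0.000654, limma with Benjamini-Hochberg adjustment) and that from OGD to OGD + A-485 was -0.49 ± 0.05 (interval -0.60 to -0.39; adjusted p = 3.47e-05, limma with Benjamini-Hochberg adjustment). Neither reached the size of a call. Between OGD + A-485 and control, Car12 was the only member called lower (-0.80 ± 0.05), and not with the neighbours' median subtracted (-0.35). The step with A-485 passed the size of a call under quantile normalization (-0.53), under scaling to total reads (-0.56), and without OGD + A-485 replicate 1 (-0.51) or 3 (-0.51). Of 14 other carbonic anhydrase genes 3 were tested, of which Car2 was called higher with A-485 (mean 0.0314 FPKM under OGD, with a library at 0 reads, and 0.545 with A-485), while Car7 (1.14) and Car13 (0.01) were not called. Car9 made up 2.38% ± 0.434 (SD, n = 3) of the summed FPKM of Car9 and Car12 in control, 5.67% ± 1.43 under OGD and 7.80% ± 0.931 with A-485 added. The log2 ratio of Car9 to Car12 lay above control without overlap under OGD (by 1.28; exact permutation test, p = 0.1, the smallest possible), and the 2 OGD groups overlapped.

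For 3 members the genes around them moved in the same comparison. Among the 50 nearest genes whose mean reached 1 FPKM, the median log2 difference between OGD + A-485 and OGD was -0.50 around Car12, where 40 of 50 were lower and 20 were called lower over 5.54 Mb. It was -0.44 around Plod1 (44 of 50 lower, 19 called lower, 4.17 Mb) and -0.32 around Plod2 (37 of 50 lower, 13 called lower, 15.2 Mb). Around the other 7 members it lay between -0.10 and 0.13. Over the neighbourhoods of 16081 genes, 90% of medians fell between -0.36 and 0.26, and 7.71% were below -0.3, against 0.0933% in the comparison of OGD with control. Car12 stood at the 50th percentile among its own neighbours, and its difference with the neighbours' median removed was 0.00301. On the same scale Plod1 became 0.58 and was called higher, and Plod2 became 0.19. Between OGD and control the median around Plod1 was -0.18, and Plod1 became 0.51 and was called higher with it removed. The part of these regional shifts in the levels of Car12, Plod1 and Plod2 was not tested.

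**Figure D3:**
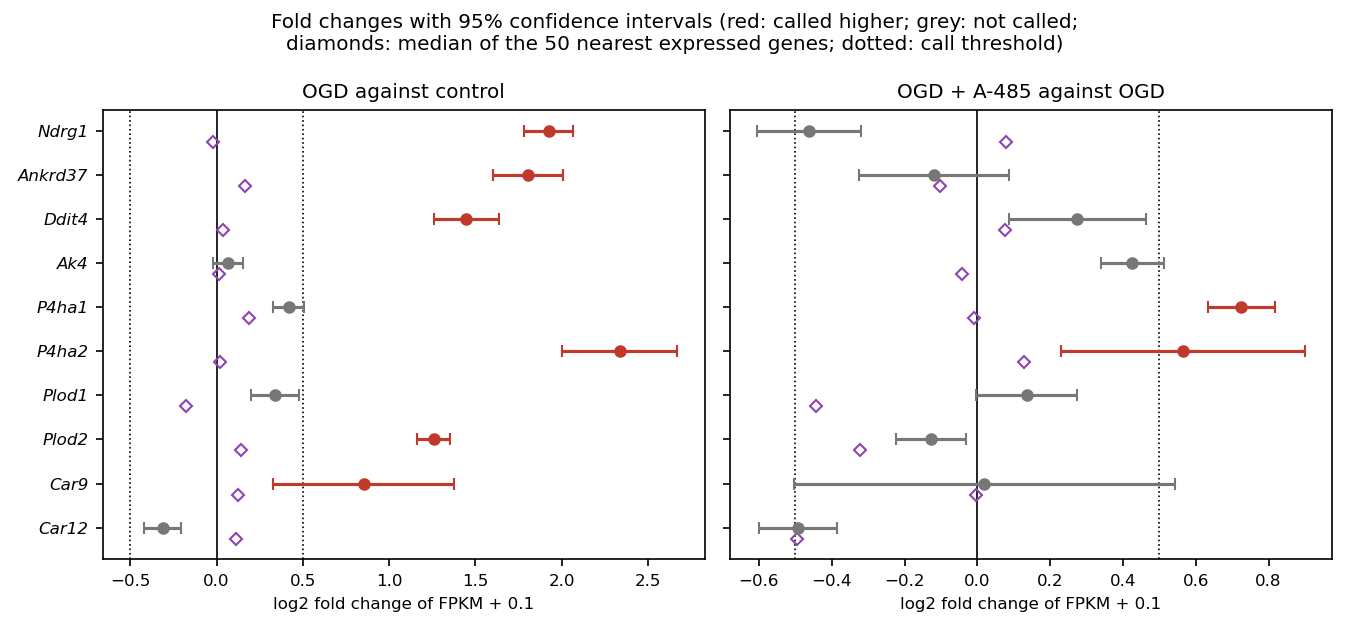
Log2 fold changes (FPKM + 0.1) of the 10 genes with 95% confidence intervals for OGD against control and for OGD + A-485 against OGD, in red where called higher and grey where not called; diamonds mark the median of the 50 nearest expressed genes and dotted lines the call size of 0.5. The x axes of the panels differ: with OGD 6 genes were called higher, with A-485 only P4ha1 and P4ha2, and the diamonds for Car12, Plod1 and Plod2 lay at -0.50, -0.44 and -0.32.

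Set against control, OGD with A-485 left most of the group high. Of the 10 genes 7 were called higher and 1 lower, against 17.0% and 16.6% of all genes tested. No gene of the 10 overlapped between these groups, 9 being higher and 1 lower, against 31.8% and 32.0% of all genes. P4ha2 measured 2.90 ± 0.15 above control, followed by Ddit4 (1.72), Ankrd37 (1.69), Ndrg1 (1.46), P4ha1 (1.14), Plod2 (1.13) and Car9 (0.87). With a pseudocount of 1, P4ha2 was 1.60 above control, below Ddit4. The intervals of Ddit4 (1.53 to 1.91), Ankrd37 (1.48 to 1.89) and Ndrg1 (1.32 to 1.60) overlapped, as did those of P4ha1 (1.05 to 1.23) and Plod2 (1.03 to 1.23). Ak4 (0.49) and Plod1 (0.47) were not called, although Ak4 was without control replicate 3 (0.53) or OGD + A-485 replicate 2 (0.50), and Plod1 without OGD + A-485 replicate 2 (0.53). With the neighbours' median subtracted, which was -0.56 around Plod1 in this comparison, Plod1 became 1.03 and 8 members were called higher. Car9 lost its call with a pseudocount of 1 (0.42) and without control replicate 1 (0.73) or 2 (0.88) or OGD + A-485 replicate 1 (0.85) or 2 (0.82). By length-scaled level in OGD + A-485, P4ha1 (94.3 ± 3.67 FPKM), Plod2 (85.8 ± 2.14) and Ndrg1 (78.3 ± 5.12) were the most abundant, and P4ha2 (2.996 ± 0.199) and Car9 (1.07 ± 0.0982) the least. In OGD alone the first place belonged to Ndrg1 (108 ± 7.31 FPKM), followed by Plod2 (93.8 ± 4.04).

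The other HIF targets outside glycolysis were counted in the same comparisons. Of 38 tested genes in 5 lists, 24 were called higher and 2 lower with OGD (median 0.80), and 1 was called higher and 10 lower with A-485 (median -0.07). Over all genes tested, 11.2% were called higher and 9.81% lower with OGD, and 12.2% and 13.4% with A-485. The same shares belong beside the counts of every list in this text. In the list of oxygen sensing and transcriptional feedback, 11 of 15 rose and none fell with OGD, while none rose and 5 fell with A-485. Egln3, an oxygen-sensing prolyl hydroxylase that acts on HIF, went from 84.8 ± 4.90 FPKM in control to 335 ± 3.77 under OGD and 53.4 ± 0.846 with A-485 added (SD, n = 3), a fall by 2.65 that left it below control. Mxi1, a MYC antagonist, fell by 0.85 with A-485. Among 10 vessel, adenosine and iron genes, 3 rose and 1 fell with OGD, and none rose and 3 fell with A-485. Vegfa, the vessel growth factor, rose by 1.27 with OGD and was 0.23 above that with A-485, not called. Tfrc, the transferrin receptor, fell by 0.78 with OGD.

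Among 6 mitochondrial targets 5 rose with OGD, Bnip3 by 1.25 and Higd1a by 1.17, and Lonp1, a matrix protease, fell by 0.98 with A-485. Of 6 tested genes in the list named for lipid and glycogen storage, 4 rose and 1 fell with OGD. Hilpda (1.82), an inhibitor of lipid breakdown, and Gys1 (1.64), glycogen synthase, rose, and Fut11 fell by 0.53. With A-485 in that list, Plin2, the lipid droplet coat protein, rose by 1.68 and Insig2 fell by 0.80. Ero1l, the oxidase that reloads protein disulfide isomerase, was the 1 tested gene of the crosslinking list. It rose by 2.35 with OGD and was not called with A-485 (-0.19). The glycolytic targets counted 8 of 19 higher and none lower with OGD (median 0.42), then 2 higher and 3 lower with A-485 (median 0.06). The latter are 10.5% and 15.8% of the list, near the 12.2% and 13.4% of all genes tested. Slc2a3 (2.54) and Slc2a1 (1.30), the glucose transporters, rose most with OGD. With A-485, Slc16a3 rose by 0.62 and Aldoc by 0.55, and Pfkp fell by 0.84 and Pfkfb4 by 0.61. No test compared these lists with the 10 genes.

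**Figure D4:**
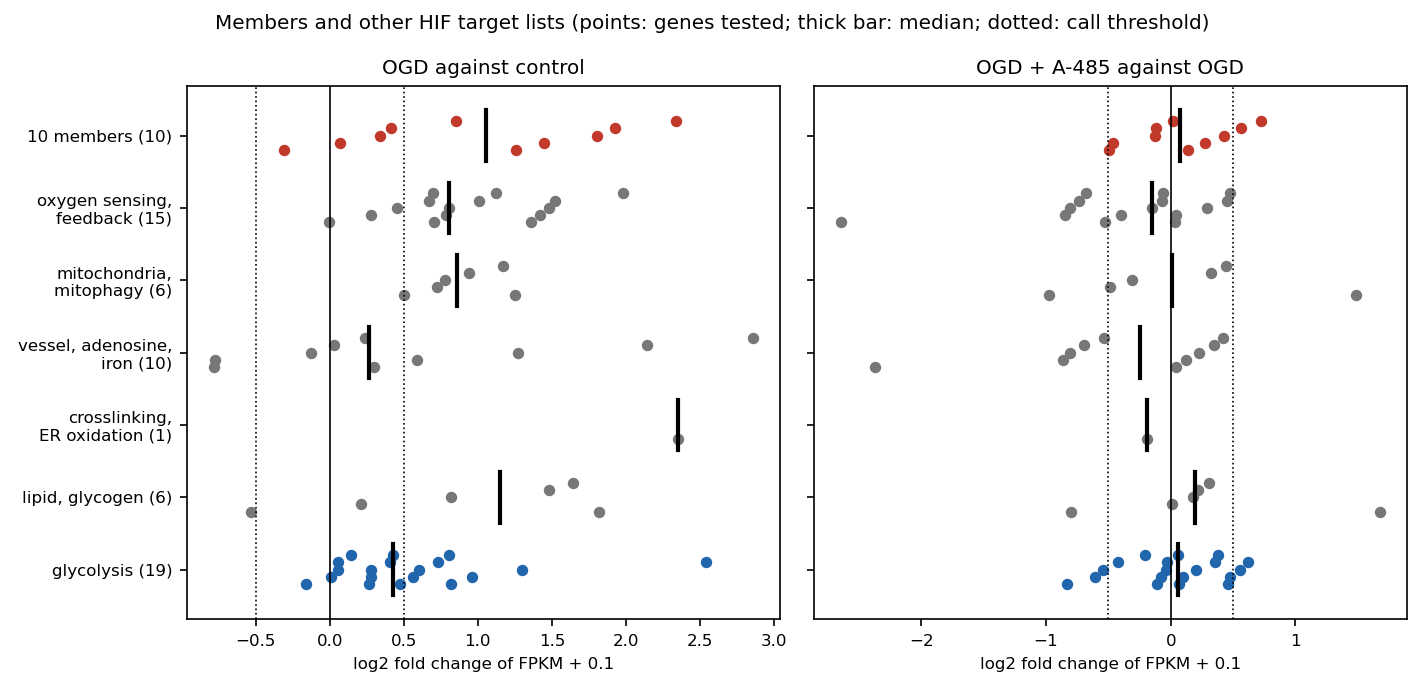
Log2 fold changes (FPKM + 0.1) of the 10 genes, of 5 lists of other HIF targets and of the glycolytic targets, with 1 point per tested gene, a thick bar for the median, dotted lines at the call size of 0.5 and the number of tested genes in brackets. With OGD the medians of the 10 genes and of the glycolytic list were 1.06 and 0.42; with A-485 the 10 genes lay between -0.49 and 0.73, while Egln3 lay at -2.65.

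Of 9 genes for HIF, its oxygen sensors and P300, 1 was called higher with OGD, Vhl (0.67), and none lower. Hif1a measured 37.4 ± 1.28 FPKM in control, 36.7 ± 4.50 under OGD, and 26.5 ± 0.536 with A-485 added (SD, n = 3), the last step being -0.46 and not called for its size. With A-485, Arnt fell by 0.60 and its relative Arnt2 by 1.39, and Egln2 rose by 0.82. Ep300, which encodes P300, differed from OGD by 0.18 with A-485 and was not called. The activity of P300 and the amount of HIF protein were not measured in these libraries.

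Among 11897 candidate genes whose mean reached 1 FPKM, the closest profiles over the 9 libraries were described for each member but Car9. For Ndrg1 they were Fblim1, Naglu and Ephx1 (Pearson r 0.998, 0.997 and 0.997). Ankrd37 was closest to Atf3, Mmp12 and Pgk1 (0.996, 0.995 and 0.994). Ddit4 was closest to Ninj1, Macrod1 and Vegfa (0.996, 0.996 and 0.995). Mmp12 encodes a macrophage elastase and Ninj1 an adhesion protein. Ak4 came nearest to P2ry2, Rcor1 and Ap3d1 (0.997, 0.994 and 0.994). P4ha1 came nearest to Atp6ap1, Itm2c and Csf1r (0.998, 0.998 and 0.997). Csf1r encodes the receptor for colony-stimulating factor 1. P4ha2 followed Tnfaip3, Tnfsf13b and Epm2a (0.998, 0.997 and 0.996). Tnfaip3 encodes A20, and Tnfsf13b the cytokine BAFF. Plod1 followed Ccnd1, Snap47 and Vps11 (0.992, 0.989 and 0.989). Plod2 followed Rras, Ero1l and Tnfrsf9 (0.998 each). Rras encodes a small GTPase. Car12 ran with Ubqln1, Gk5 and Hnrnpdl (0.996, 0.996 and 0.995). With 3 groups of 3 libraries any gene with like group means reaches such values.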

How the data were processed

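RNA of BV2 cells was sequenced in 9 libraries, 3 per group, grouped by the sample titles. The authors counted reads on genes with featureCounts (v1.5.0-p3, per the labels; build GRCm38, mm10) and deposited FPKM for 54532 genes. The aligner and the use of strand are not given in the sources used here. Whole reads could be recovered from 100% of values above 0 (relative tolerance 1e-06), and a read on a gene of 1 kb is worth 0.0618 to 0.0786 FPKM. The deposited scaling was not to total reads on genes. The median-of-ratios factor compares each gene with its geometric mean over the libraries and takes the median over genes. It was 1.00613 in every library, so the deposited values were already equalized by it.

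Genes whose mean over the libraries reached 0.2 FPKM (16123) were tested with limma 3.58.1 (R 4.3.3) on log2(FPKM + 0.1), with a mean per group over all 9 libraries and a trended prior variance. Calls needed an unadjusted p under 0.01 with a log2 fold change beyond 0.5 in either direction, and adjusted p-values are Benjamini-Hochberg over all genes tested. The fit was tested on simulated data. The 23 alternatives include limma-voom on the recovered reads. Gene coordinates are from the table, and all 10 match GENCODE M21.

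The members and the lists were chosen with earlier results of these data known. All 10 members are named. From each other list, at most the 2 largest rises and falls among called genes whose mean reached 1 FPKM were named per comparison (1 gene that the rule selects is not reported here), with the 3 closest profiles of each such member and overlaps on the opposite strand. Atf4, Hif1a, Ep300, Colgalt1, Ndrg4, Car2, Car7, Car13, Col4a2, Col18a1 and the untested genes, and named genes in comparisons where they were not called, were chosen after their values were seen. Libraries of 1 group differed by more than sampling noise (chi-square per degree of freedom 2.80 to 5.73). Same-numbered libraries did not deviate together (correlations -0.125 to 0.0725), so the numbers do not pair them.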

Additional observations from a re-analysis of the deposited data

How the results depend on the processing

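Of the counts and values of the 10 genes and of the other HIF targets, most kept their direction and their side of the threshold under the 23 alternatives. The median-of-ratios rescaling among these divided every library by the same factor (1.00613), so it could not test any of them. With A-485 against OGD, the 2 members called higher became 1 with a pseudocount of 1 and 0 with a log2 limit of 1; the members called lower went from 0 to 2 under quantile normalization and under total-read scaling, and to 1 with neighbouring genes removed (the median of the 50 nearest subtracted). Against control, the 1 member called lower became 0 with neighbouring genes removed and 0 with a log2 limit of 1. The other HIF targets called lower with OGD went from 2 to 1 with a pseudocount of 1 and to 0 with a log2 limit of 1. With A-485 against OGD, those called higher went from 1 to 2 with a pseudocount of 1, without a filter, in a fit of only the groups compared and with limma-voom on recovered reads, and those called lower from 10 to 2 with a log2 limit of 1. Against control, those called lower went from 4 to 0 with that limit. The difference between OGD + A-485 and OGD turned sign for Plod2 (0.19) and Car12 (0.00301) with neighbouring genes removed, and for Car9 under total-read scaling (-0.040), without OGD replicate 3 (-0.18) and without OGD + A-485 replicate 2 (-0.03); its range over left-out libraries was -0.18 to 0.17. The cause was not tested.

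Leaving out 1 library at a time gave, for the 10 genes, 5 to 6 called higher with OGD, 1 to 2 higher and 0 to 1 lower with A-485 against OGD, and 6 to 8 higher against control. For the other HIF targets it gave 1 to 2 lower with OGD, 1 to 3 higher and 9 to 11 lower with A-485 against OGD, and 3 to 5 lower against control; the 1 higher became 2 without control replicate 1 and 3 without OGD replicate 2, and the 2 lower became 1 without control replicate 2 or OGD replicate 2. With the replicate number as a block, which the libraries do not support as a pairing, Car9 lost its call with OGD (log2 fold change 0.85) and with OGD + A-485 against control (0.87), so that 5 and 6 members were called higher; no other call of the 10 genes changed. Against control, total-read scaling changed the counts over all genes from 2747 higher and 2684 lower to 2253 and 3350. A pseudocount of 1 took P4ha2 from 2.34 to 1.18 with OGD and from 2.90 to 1.60 with OGD + A-485 against control, and removing neighbouring genes took Plod1 from 0.47 to 1.03 in the latter. The depth limits Car9 and, in control, P4ha2.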

Other observations

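Although fibrillar collagens were near 0, the RNA of 6 genes for macrophage proteins with a collagen-like stretch, the kind of sequence on which prolyl hydroxylases act, was read as well. These genes were chosen after their values were seen and stand for no list. Colec12, a scavenger receptor, measured 33.9 ± 1.36 FPKM in control, 61.0 ± 2.06 under OGD and 144 ± 4.23 with A-485 added (SD, n = 3), a rise by 0.85 and then by 1.24 on the log2 scale. Msr1, the class A scavenger receptor, measured 0.377 ± 0.0419, 0.995 ± 0.158 and 8.94 ± 0.725 FPKM, a rise by 1.19 and then by 3.05. Marco, of the same class, was at 0.120 ± 0.0249 FPKM in control, 0.0671 ± 0.0612 under OGD and 16.0 ± 1.10 with A-485 added. Among the chains of complement C1q, C1qb was listed at 0 in every control and OGD library and measured 13.0 ± 0.440 FPKM in OGD + A-485. C1qc was listed at 0 in control, had a mean of 0.0136 FPKM in OGD and measured 4.15 ± 0.274 FPKM with A-485. C1qa, listed at 0 in control and OGD, measured 0.521 ± 0.215 FPKM with A-485. The amount and the hydroxylation of these proteins were not measured.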
